A study of Mus musculus with 12 samples.

Results

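Sox4, Sox11 and Sox12, the 3 genes of the SoxC group of high-mobility-group transcription factors, were followed by symbol, and they made up 3 of the 55335 features in the count tables. They were measured by single-nucleus RNA sequencing of forebrain from 12 mice at postnatal day 1 (P1), with 1 library per animal. The 8 wild-type (WT) libraries came from 5 males and 3 females and the 4 heterozygous (Het) libraries from 3 males and 1 female. WT 6, WT 7, WT 8 and Het 4 were the female libraries. Het animals carried 1 copy of the frameshift allele S710fsX of Myt1l, a gene for a zinc-finger transcription factor of neurons, and WT animals carried none. Both genotypes came from a line on C57BL/6 kept by pairing Het animals with C57BL/6J mice. The question asked of the data was how the SoxC genes, which mark young neurons, varied from progenitor to neuron and between the genotypes.

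SoxC proteins bind DNA through a shared high-mobility-group domain and switch on genes of early neuronal differentiation, among them cytoskeletal genes such as Tubb3 and Dcx. In the developing forebrain Sox4 and Sox11 rise as progenitors leave the cell cycle, stay high while neurons migrate and extend processes, and fall as neurons mature. Sox12 is widely expressed, a weaker activator, and largely dispensable where the other two are present. MYT1L is known as a repressor of non-neuronal and early developmental genes in maturing neurons.

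In the GRCm38 assembly, Sox4 (ENSMUSG00000076431.4) is a gene of 1 exon on the minus strand, at chr13:28948919-28953713, with 4795 exonic bases. Sox11 (ENSMUSG00000063632.6) likewise has 1 exon, on the minus strand at chr12:27334264-27342574, with 8311 exonic bases. It lies on the chromosome of Myt1l (chr12:29528384-29923213), at a distance of 2.19 Mb. Sox12 (ENSMUSG00000051817.8) is at chr2:152393611-152398063, also on the minus strand, with 2 transcripts of 1 or 2 exons and 4453 exonic bases. A long noncoding gene on the plus strand, Gm26735, overlaps 2753 bases of Sox4 and its level was not analysed here. The sources used here do not state whether counting used the strand, and without strand reads of the pair cannot be told apart.

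The sequences upstream of the 3 genes are shown because the genes are compared throughout, and because AAAGTTT and its inner letters AAGTT are the core bound by the MYT1 family. Bases -250 to -26 from the RefSeq start (GRCm38.p6), read 5′ to 3′ on the minus strand, came from chr13:28953725-28953949 for Sox4, chr12:27342744-27342968 for Sox11 and chr2:152398072-152398296 for Sox12. Capitals mark AAAGTTT and CCAAT on either strand (a CCAAT box read from the other strand is ATTGG).
Sox4: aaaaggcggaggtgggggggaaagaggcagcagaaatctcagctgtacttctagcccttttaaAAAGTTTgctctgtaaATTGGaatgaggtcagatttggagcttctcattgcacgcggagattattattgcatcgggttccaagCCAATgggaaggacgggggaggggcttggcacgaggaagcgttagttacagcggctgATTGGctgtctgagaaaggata
Sox11: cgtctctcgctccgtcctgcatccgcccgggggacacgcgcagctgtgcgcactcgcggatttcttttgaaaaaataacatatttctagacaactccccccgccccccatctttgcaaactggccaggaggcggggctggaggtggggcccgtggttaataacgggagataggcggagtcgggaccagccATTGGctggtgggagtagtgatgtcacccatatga
Sox12: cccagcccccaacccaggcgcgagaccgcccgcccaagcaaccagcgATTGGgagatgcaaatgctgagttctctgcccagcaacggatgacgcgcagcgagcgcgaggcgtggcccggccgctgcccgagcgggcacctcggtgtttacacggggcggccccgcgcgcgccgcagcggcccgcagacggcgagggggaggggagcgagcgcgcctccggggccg
The AAAGTTT core was found once, at -187 of Sox4, where it also holds the AAGTT match. Of 32851 RefSeq promoter windows, read over the same bases -250 to -26, 3.86% held it. No match to AAAGTTT or AAGTT stood in the windows of Sox11 or Sox12, and 32.9% of all windows held AAGTT. The CCAAT box matched 3 times upstream of Sox4, 1 time upstream of Sox11 and 1 time upstream of Sox12, and 31.6% of windows held at least 1. The POU octamer ATGCAAAT was found upstream of Sox12 at -195 and in 1.51% of windows. The E box CANNTG matched 1, 2 and 1 times in Sox4, Sox11 and Sox12, against 62.8% of windows with any match. The SOX motif ACAAAG matched in none of the 3 windows and in 15.1% of all. Base composition differed widely, with 49.8% G and C upstream of Sox4, 59.1% for Sox11 and 75.6% for Sox12, against a median of 52% over all windows.

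After filtering, 94412 nuclei were kept, between 4473 and 10896 per library, with a median of 1899 unique molecular identifiers (UMIs, 1 per captured RNA molecule). They held 49614 UMIs of Sox11, 18315 of Sox4 and 5012 of Sox12. Levels are given as CPM, the UMIs of a gene per 1000000 UMIs summed over the nuclei of a class in a library. Nuclei were assigned to classes by marker genes that include no SoxC gene, and 56290 nuclei (59.6%) entered a class. Cycling genes took precedence over other markers, so cycling nuclei can also carry neuronal markers. Of 53 checks by marker genes held back from the assignment, 43 found the gene highest in its own class. Among them were Mpped1 in excitatory-like nuclei (572 CPM) and Neurod1 in Eomes-gated nuclei (22.4 CPM). Exceptions included Nhlh1, listed at 0 in Eomes-gated nuclei, and Sox9, higher in choroid-like (86.9 CPM) than in glial-like nuclei (54.8 CPM). Genes of subclasses were compared only among the subclasses of their lineage. Ikzf1 therefore counted for striatal-like nuclei (83.2 CPM) despite 328 CPM in microglia-like nuclei. Plxnd1 counted for upper-layer-like nuclei (25.9 CPM) despite 35.8 CPM in microglia-like nuclei, and Igfbpl1 for Eomes-gated and for olfactory-like nuclei. Mpped1 also reached 208 CPM in microglia-like nuclei, and the parts of free RNA, misassigned nuclei and remaining doublets in this were not tested. Library WT 8 stood apart from the rest in Sox4 and Sox11.

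Over all kept nuclei Sox11 was the most abundant of the 3 genes. Its level was 243 CPM ± 56.1 (SD, n = 12 libraries), with 90.3 CPM ± 21.8 for Sox4 and 24.4 CPM ± 2.29 for Sox12. Per kilobase of exon the levels were 29.3 CPM per kb for Sox11, 18.8 for Sox4 and 5.48 for Sox12, so the order held after length was taken into account. The spread between libraries differed too. Sox4 ranged from 62.0 CPM in WT 4 to 145 CPM in WT 8 and Sox11 from 177 CPM in WT 7 to 362 CPM in WT 8, whereas Sox12 ranged only from 21.3 to 27.8 CPM.

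Among the main gated classes, subclasses left aside, Sox4 and Sox11 were highest in the few Eomes-gated nuclei. These carry the markers of intermediate progenitors of excitatory neurons. Cycling and excitatory-like nuclei came next for Sox11, and endothelial-like nuclei (138 CPM ± 44.2, SD, n = 12) before both for Sox4. The 83 Eomes-gated nuclei, at most 17 in a library, gave pooled levels of 623 CPM for Sox11 (exact Poisson 95% interval 513 to 750) and 239 CPM for Sox4 (173 to 322), from 112 and 43 UMIs. Sox12 had 3 UMIs in them (16.7 CPM, 3.44 to 48.8). These intervals cover counting error only. Cycling nuclei had 301 CPM ± 78.8 of Sox11 and 111 CPM ± 39.8 of Sox4 (SD, n = 12), and excitatory-like nuclei 273 CPM ± 76.7 and 102 CPM ± 30.5. For Sox11, inhibitory-like nuclei followed with 237 CPM ± 43.5 (71.4 CPM ± 19.2 of Sox4, the second lowest of 9 classes), and glial-like nuclei, which carry markers of radial glia and astrocytes, with 203 CPM ± 49.1 and 74.2 CPM ± 19.7. Microglia-like nuclei, immune cells that should lack Sox11, still had 191 CPM ± 73.8 of it and 78.5 CPM ± 54.2 of Sox4, more Sox4 on average than inhibitory-like or glial-like nuclei. The lowest Sox11 was in Cajal-Retzius-like nuclei (83.0 CPM ± 33.4), the early-born neurons of the cortical surface, and in mural and fibroblast-like nuclei (104 CPM ± 55.0). Leaving out the Eomes-gated nuclei, neighbours in the order of levels overlapped in range over the libraries for each of the 3 genes.

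**Figure D1:**
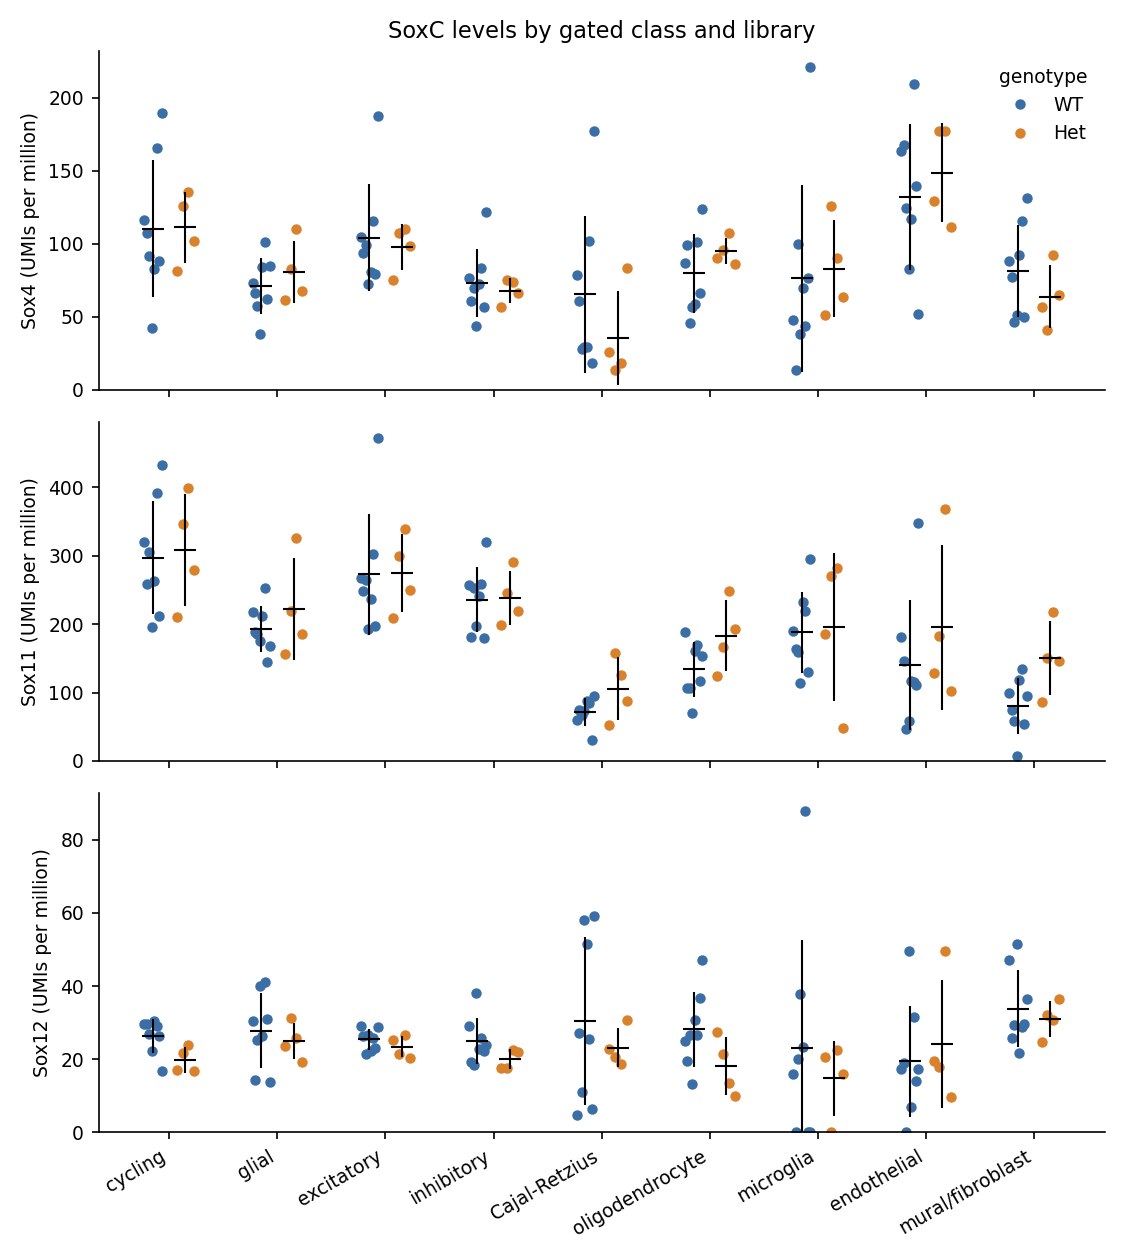
Level of Sox4, Sox11 and Sox12 (UMIs per 1000000, linear axes from 0) in 9 gated classes, with 1 point per library, WT blue and Het orange, and the mean ± SD of each genotype in black. Sox11 was higher in cycling and excitatory nuclei than in Cajal-Retzius and mural nuclei, Sox12 was between 20.3 and 32.9 CPM on average in every class shown, and Het and WT points overlapped.

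Sox12 showed no such order. Its mean level was 24.7 CPM ± 2.95 in excitatory-like, 23.3 ± 5.79 in inhibitory-like, 26.9 ± 8.71 in glial-like and 24.2 ± 5.28 in cycling nuclei (SD, n = 12). It was highest in mural and fibroblast-like nuclei among the 9 main classes with at least 10 nuclei in all 12 libraries (32.9 CPM ± 8.86) and lowest in microglia-like nuclei (20.3 CPM ± 24.5), where the SD exceeded the mean.

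Depth per nucleus differed between classes, from a median of 1152.5 UMIs in microglia-like to 2633.5 in Cajal-Retzius-like nuclei, so each nucleus was thinned to 1000 UMIs and the share of nuclei with a UMI was compared. At that depth 48.6% of 74 Eomes-gated nuclei had a Sox11 UMI (exact binomial 95% interval 36.9 to 60.6%), against 25.9% of cycling (24.5 to 27.4%), 23.5% of excitatory-like (23.0 to 24.1%), 21.7% of inhibitory-like (20.9 to 22.6%) and 17.2% of glial-like nuclei (16.4 to 18.1%). Microglia-like nuclei, the class that should lack the gene, gave 14.6% (10.9 to 19.1%). These intervals pool the nuclei of all libraries and cover counting error only. By library the share ranged from 5.26 to 25.0% in microglia-like nuclei (11 libraries with at least 10 at this depth). It ranged from 16.7 to 25.5% in inhibitory-like and 18.2 to 34.6% in excitatory-like nuclei (12 libraries), so the library ranges overlapped. The pooled glial-like share lay within the wide microglia interval, from 308 nuclei. It was above the shares in oligodendrocyte-like (12.9%), endothelial-like (11.9%), Cajal-Retzius-like (8.71%) and mural and fibroblast-like nuclei (8.59%). These lower shares did not exceed the microglia share and are not read as expression. For Sox4 the share was 20.3% in Eomes-gated, 9.78% in cycling, 9.70% in excitatory-like and 7.19% in inhibitory-like nuclei, against 5.19% (3.00 to 8.30%) in microglia-like nuclei. The inhibitory-like share lay within the microglia interval for Sox4. Endothelial-like nuclei were above it, at 12.5% (10.5 to 14.8%). By library the Sox4 shares overlapped too, at 0 to 10.5% in microglia-like, 7.08 to 16.5% in excitatory-like and 4.17 to 20% in endothelial-like nuclei. For Sox12 the share was between 1.95% and 3.00% in cycling, excitatory-like, inhibitory-like, glial-like, oligodendrocyte-like, endothelial-like, mural and Cajal-Retzius-like nuclei, against 0.649% (0.0787 to 2.33%) in microglia-like nuclei, and every interval reached into the microglia interval. Of the Eomes-gated nuclei 0 of 74 had one, which allows a share of up to 4.86% (exact binomial 95% interval). Without thinning, 44.9% of excitatory-like and 22.1% of microglia-like nuclei had a Sox11 UMI, 21.5% and 10.6% a Sox4 UMI, and 6.25% and 2.58% a Sox12 UMI, at median depths of 2502 and 1152.5 UMIs. Nuclei under 1000 UMIs were left out, 1071 of the excitatory-like and 118 of the microglia-like.

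**Figure D2:**
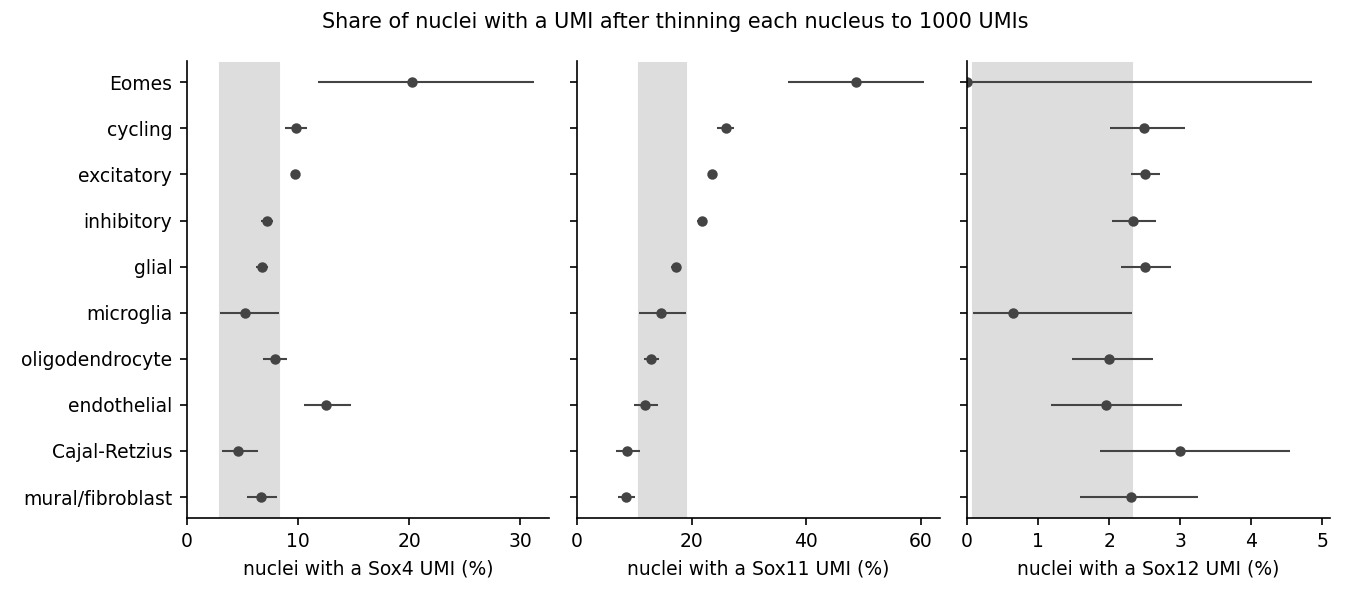
Share of nuclei (%) with a UMI of Sox4, Sox11 or Sox12 after each nucleus was thinned to 1000 UMIs, by class, with exact binomial 95% intervals and the interval of microglia-like nuclei shaded. Eomes, cycling, excitatory and inhibitory nuclei lay above the shaded band for Sox11, and Eomes, cycling, excitatory and endothelial nuclei above it for Sox4. The intervals pool nuclei over libraries and cover counting error only, not the spread between libraries.

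The ratio of Sox11 to Sox4 CPM varied between classes. It was 2.69 ± 0.179 in excitatory-like nuclei (SD, n = 12), 3.40 ± 0.482 in inhibitory-like nuclei and 4.65 ± 1.06 in the inhibitory nuclei of the medial ganglionic eminence type (MGE-like). Pooled over libraries it was 2.73 in glial-like and 2.57 in microglia-like nuclei, near the 2.71 of all nuclei, and 1.79 in oligodendrocyte-like, 1.51 in mural and fibroblast-like and 1.04 in endothelial-like nuclei.

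Differences between classes were tested within libraries with edgeR's quasi-likelihood test. A call needed a log2 difference of at least 0.2 in size and an adjusted p (Benjamini-Hochberg, over all genes tested) under 0.05. Excitatory-like nuclei exceeded glial-like nuclei in all 3 genes, against a background of 69.9% of 15412 genes called. Sox11 was higher in 12 of 12 libraries by a log2 difference of 0.82 ± 0.08 (SE, adjusted p = 1.72e-08) and Sox4 in 11 of 12 by 0.83 ± 0.08 (adjusted p = 1.48e-08). Sox12 was called at 0.31 ± 0.11 (adjusted p = 0.022), but its CPM was higher in excitatory-like nuclei in only 5 of 12 libraries. The normalization factors moved all 3 genes of this pair upward, and with library totals alone Sox11 differed by 0.41, Sox4 by 0.43 and Sox12 by -0.10 (adjusted p = 0.000187, 0.000115 and 0.432). The Sox12 call was also lost without WT 2 (0.24, adjusted p = 0.0550). Ribosomal protein mRNA, a measure of cytoplasmic RNA carried with nuclei, was 623 CPM in excitatory-like and 868 CPM in glial-like nuclei, and its part in the differences was not tested.

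Inhibitory-like nuclei exceeded glial-like nuclei in Sox11 alone (log2 difference 0.50 ± 0.07, adjusted p = 1.51e-06, higher in 10 of 12 libraries), with 67.6% of 13683 genes called (31.7% higher). Sox4 differed by 0.20 ± 0.08 (adjusted p = 0.0262) and just missed the size limit, though it passed with any of 10 libraries left out (0.21 to 0.28), and Sox12 by 0.05 ± 0.11 (adjusted p = 0.708). Without factors the Sox11 difference was 0.23 and still called (adjusted p = 0.00727), the Sox4 difference -0.08 and the Sox12 difference -0.22. Cycling nuclei exceeded glial-like nuclei in Sox11 (0.53 ± 0.07, adjusted p = 1.77e-07, 12 of 12 libraries) and Sox4 (0.52 ± 0.08, adjusted p = 2.95e-06, 11 of 12), with 49.5% of 12102 genes called. Sox12 differed by -0.15 ± 0.13 (adjusted p = 0.342, 95% interval -0.40 to 0.10).

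Between the neuron lineages, Sox4 was lower in inhibitory-like than in excitatory-like nuclei in 12 of 12 libraries (log2 difference -0.56 ± 0.04, adjusted p = 5.89e-10) and Sox11 in 10 of 12 (-0.25 ± 0.05, adjusted p = 0.000258), where 38% of 14991 genes were called. The Sox11 difference was -0.19 without factors, just under the size limit. Sox12 differed by -0.19 ± 0.07 (adjusted p = 0.0462), under the limit, and was called with any of 6 libraries left out (-0.24 to -0.20).

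Within excitatory-like nuclei, upper-layer-like nuclei had 291 CPM ± 86.4 of Sox11 and deep-layer-like nuclei 235 CPM ± 66.8 (SD, n = 12). Sox11 was higher in the upper-layer-like nuclei, whose neurons are born later, in 11 of 12 libraries by a log2 difference of 0.26 ± 0.05 (adjusted p = 0.000141), where 27.6% of 12928 genes were called. Under the stricter gate it was 0.28 and not called (adjusted p = 0.0558). Sox4 (103 and 102 CPM) differed by -0.01 ± 0.06 (95% interval -0.13 to 0.12) and Sox12 (24.8 and 24.1 CPM) by 0.00 ± 0.09 (-0.18 to 0.19), neither called. Among inhibitory subclasses, Sox4 was lower in MGE-like nuclei (60.3 CPM ± 26.5) than in nuclei of the caudal ganglionic eminence type (CGE-like, 87.7 CPM ± 43.3), by -0.45 ± 0.13 (adjusted p = 0.00627, 10 of 12 libraries), with 26.5% of 6353 genes called. Without the filter on low counts this call was lost (-0.36, adjusted p = 0.187). Sox11 was 267 CPM ± 75.9 and 315 CPM ± 128 in them, a difference of -0.17 ± 0.08 (adjusted p = 0.148) that was -0.33 and called with all barcodes (adjusted p = 0.000736), and Sox12 differed by 0.07 ± 0.23 (adjusted p = 0.895). Striatal-like nuclei had the lowest Sox11 of the subclasses (193 CPM ± 56.1), with 15 nuclei from WT 4. Olfactory-like nuclei (246 CPM ± 106 of Sox11, 89.1 ± 38.7 of Sox4) exceeded them by 0.12 ± 0.16 in Sox11 and 0.31 ± 0.17 in Sox4, neither called (adjusted p = 0.632 and 0.189), while 25.6% of 5613 genes were called. Sox12 was too sparse for this pair.

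Added after the data had been seen, 5 further pairs set classes against microglia-like nuclei and against excitatory-like nuclei. Excitatory-like nuclei exceeded microglia-like nuclei in Sox11 by 1.28 ± 0.17 (adjusted p = 9.94e-13), in Sox4 by 1.18 ± 0.22 and in Sox12 by 1.38 ± 0.40 (44% of 14793 genes called, 28.7% higher). Without factors only the Sox11 difference was still called (0.51, adjusted p = 0.00803), and Sox4 differed by 0.42 (adjusted p = 0.136), while DESeq2 did not call Sox12 (1.04, adjusted p = 0.0690). Inhibitory-like nuclei exceeded them by 0.96 ± 0.16 in Sox11, 0.55 ± 0.23 in Sox4 and 1.11 ± 0.43 in Sox12 (50.4% of 10170 genes called, 32% higher), of which none was called without factors (0.32, -0.09 and 0.48), and DESeq2 did not call Sox4 (0.23, adjusted p = 0.479) or Sox12 (0.80, adjusted p = 0.178). Endothelial-like nuclei exceeded microglia-like nuclei in Sox4 by 1.00 ± 0.26 (adjusted p = 0.00161, 11 of 12 libraries) and by 0.97 without factors, while Sox11 differed by -0.22 ± 0.18 (adjusted p = 0.306) (59.1% of 4047 genes called). Cajal-Retzius-like nuclei were below excitatory-like nuclei in Sox11 (-2.03 ± 0.12, adjusted p = 1.61e-24) and Sox4 (-1.32 ± 0.16, adjusted p = 5.09e-11), both lower in 12 of 12 libraries, with 32.3% of 15381 genes called. In Sox12 they differed by -0.27 ± 0.22 (adjusted p = 0.397).

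Eomes-gated nuclei were set against excitatory-like nuclei in the 5 WT and 4 Het libraries that held at least 5 of them. Neither Sox4 (log2 difference 0.27 ± 0.31, adjusted p = 0.559) nor Sox11 (0.12 ± 0.27, adjusted p = 0.77) was called, while the median over all 11627 genes in this sparse fit was -0.79 and 19.3% were called (2.14% higher). With library totals alone the differences were 1.27 for Sox4 and 1.16 for Sox11, both called (adjusted p = 0.00247 and 0.00035), and DESeq2 gave 1.05 and 0.92, also called. Sox12, with 3 UMIs in these nuclei, was called lower (-3.02 ± 0.97, adjusted p = 0.0157) but not without factors or by DESeq2. Whether Eomes-gated nuclei exceed excitatory-like nuclei in Sox4 and Sox11 thus depended on the scaling.

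To place the neurons by age, each nucleus received an immaturity index. This was its UMIs of 18 genes of immature neurons divided by its UMIs of these and 18 genes of maturing neurons. Neither list held a SoxC gene. The immature list holds Tubb3 and Dcx, given above as genes that SoxC proteins switch on. The index is thus not fully separate from SoxC activity, and their part in it was not tested. The immature list also holds Tead2, named below as a gene of progenitors, whose part in the index was not tested either. Sox4 and Sox11 rose with the index in both lineages. In excitatory-like nuclei Sox11 averaged 187 CPM below an index of 0.25, 253 from 0.25 to 0.5, 481 from 0.5 to 0.75 and 761 from 0.75 up, in 5221, 15947, 3544 and 618 nuclei. Sox4 averaged 81.6, 96.5, 157 and 213 CPM in the same ranges, and Sox12 23.5, 24.2, 30.3 and 30.2 CPM. In the most mature range Sox11 was between 136 and 234 CPM over the libraries (median 184), and in the most immature range between 547 and 1195 CPM (median 727), with no overlap. The log2 difference between these ranges was 1.66 ± 0.11 for Sox11 (adjusted p = 2.52e-25, higher in 12 of 12 libraries) and 1.06 ± 0.15 for Sox4 (adjusted p = 6.79e-09, 11 of 12), where 27.8% of 7102 genes were called. The exception for Sox4 was WT 4, with 38.1 CPM in the most immature range. Without WT 8 the differences were 1.52 and 1.01, and without factors 1.98 and 1.37. Under a stricter gate Sox4 differed by 0.66 and was not called (adjusted p = 0.135). Sox12 differed by -0.27 ± 0.35 (adjusted p = 0.657, 95% interval -0.95 to 0.42), with 20 UMIs in the most immature range, and without factors by 0.04.

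In inhibitory-like nuclei Sox11 averaged 166, 229, 380 and 588 CPM over the 4 ranges, Sox4 47.8, 70.3, 111 and 179 CPM, and Sox12 20.8, 22.6, 31.6 and 35.2 CPM. The most immature range held 557 nuclei and was compared in 11 libraries, since WT 4 had under 10. Sox11 was between 402 and 812 CPM there (median 546) and between 111 and 203 CPM in the most mature range (median 168), and Sox4 between 91.7 and 540 CPM (median 144) against 37.2 to 79.4 CPM (median 47.9). Neither gene's ranges overlapped. Both genes had the same log2 difference, 1.42 ± 0.13 for Sox11 (adjusted p = 1.68e-16) and 1.42 ± 0.19 for Sox4 (adjusted p = 4.91e-10), with 33.6% of 7504 genes called. WT 8 held the 540 CPM, and without it Sox4 differed by 1.26. Without factors both genes differed by 1.82. Sox12 differed by 0.33 ± 0.37 (adjusted p = 0.555).

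**Figure D3:**
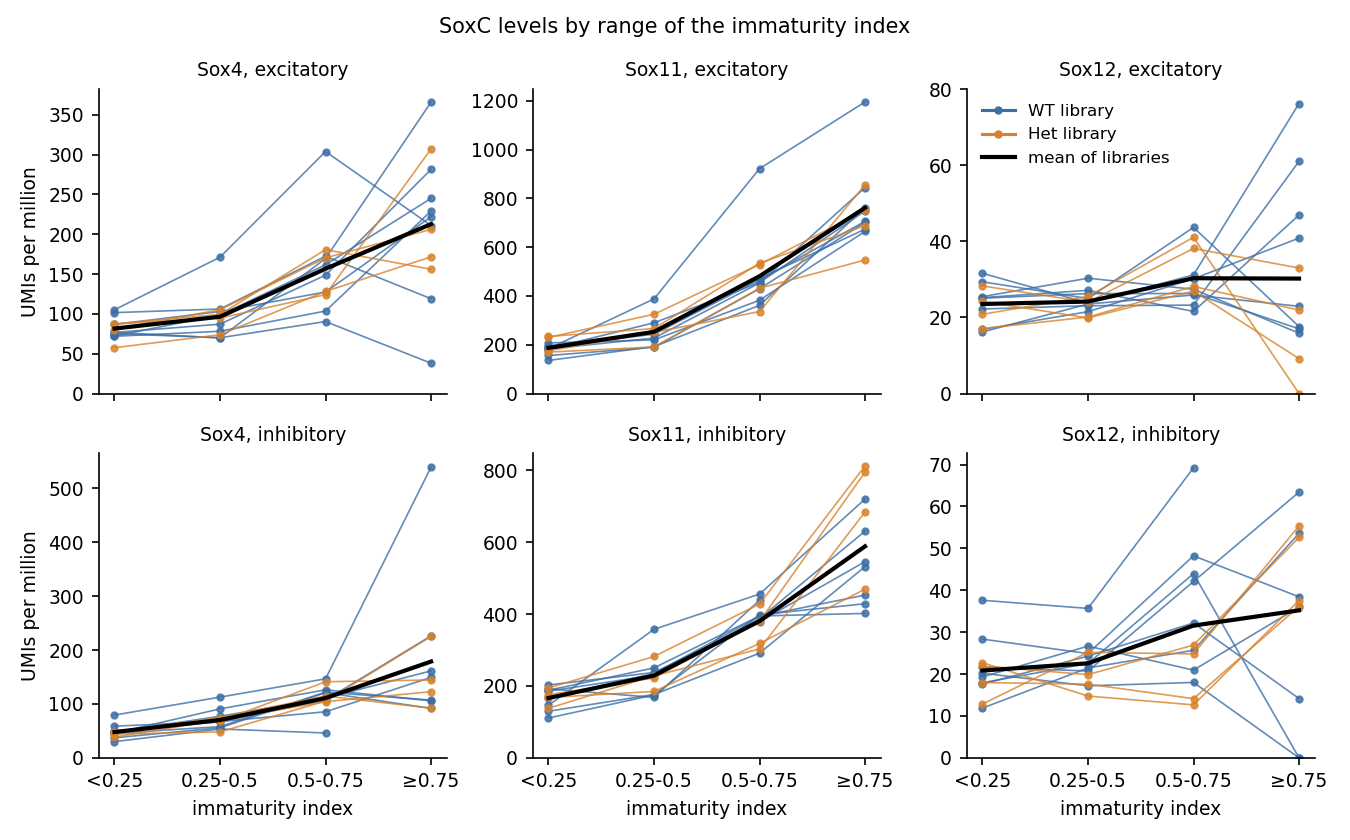
Level of Sox4, Sox11 and Sox12 (UMIs per 1000000, linear axes from 0) in 4 ranges of the immaturity index in excitatory (top) and inhibitory nuclei (bottom), with 1 line per library (WT blue, Het orange) and the mean over libraries in black. Sox11 rose from 187 to 761 CPM in excitatory and from 166 to 588 CPM in inhibitory nuclei, and Het and WT lines overlapped in the excitatory and inhibitory panels.

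Nuclei in the most immature range were shallower (medians of 1252 and 1093 UMIs, against 2696 and 2481.5 in the most mature range), and ribosomal protein mRNA rose with the index too, from 585 to 783 CPM in excitatory-like and from 574 to 787 CPM in inhibitory-like nuclei. The part of either in the SoxC differences was not tested. Thinned to 1000 UMIs, the share of excitatory-like nuclei with a Sox11 UMI was 17.9, 21.8, 36.7 and 49.9% over the ranges and that with a Sox4 UMI 7.84, 9.02, 14.6 and 18.4%. In inhibitory-like nuclei the shares were 16.5, 21.1, 29.7 and 38.9% for Sox11 and 5.22, 6.65, 10.7 and 15.6% for Sox4. In the most mature range both genes' shares lay within the interval of microglia-like nuclei in both lineages, and in the 2 most immature ranges they lay above it. That interval covers counting error only, not the spread between libraries. Sox12 shares stayed between 1.89 and 3.98% with no order.

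The lists that make up the index cannot be tested over it, since they define the ranges. Among 10 transcription factors known as partners or upstream regulators of SoxC genes, 5 were measurable in the excitatory comparison and 4 of them were higher in the most immature range (Pou3f2 1.92, Pou3f3 1.48, Ezh2 0.67 and Neurod1 2.03), with a list median of 1.48 against -0.02 over all genes, of which 9.31% were called higher. Pou3f2 and Pou3f3 encode POU proteins that bind DNA beside SOX proteins, Ezh2 the enzyme of the Polycomb mark and Neurod1 a proneural factor. In inhibitory-like nuclei 4 of 4 measurable factors were higher (Ezh2 1.07, Pou3f2 2.49, Pax6 1.85 and Pou3f3 1.24), of which Pax6 also serves to gate olfactory-like nuclei, and 10.7% of all genes were called higher. Of 16 other Sox genes, Sox5, a SoxD gene of deep-layer neurons, was lower in the most immature excitatory range (-1.66, with 18.4% of all genes called lower) and Sox6, its close relative, higher (0.87), the 2 that were measurable. In inhibitory-like nuclei, where 22.8% of all genes were called lower, Sox6 was lower (-0.70) and Sox5 (0.41), Sox2 (0.91) and Sox1 (1.11) were higher.

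Against glial-like nuclei most other Sox genes went the other way from SoxC. Of 16, 9 were measurable, Sox5 was higher in excitatory-like nuclei (0.83, named after its value was seen) and 8 were lower, among them Sox2 (-4.09), the progenitor factor, and Sox9 (-3.78) and Sox8 (-4.30), genes of the gliogenic SoxE group, with a list median of -4.09, where 35.1% of all genes were called lower and 34.8% higher. Sox6 (-4.28) and Sox13 (-4.16) were lower too. In inhibitory-like nuclei all 9 were lower than in glial-like nuclei, with a median of -1.64 and 35.9% of all genes called lower. Of the 18 immature neuron genes 16 were measurable in the excitatory comparison, 14 were higher (Dpysl5 2.26, Cntn2 2.32, Stmn2 2.27 and Dpysl3 1.32 among them) and Tead2, a gene of progenitors, was lower (-4.92). Of the maturing neuron genes 15 of 18 were higher. Of 9 measurable partners Neurod1 (1.73) and Pou3f1 (1.51) were higher and 5 were lower, among them Pax6 (-4.73), a progenitor factor, Rest (-1.80), a repressor of neuronal genes, and Pou3f4 (-1.56).

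Between upper-layer-like and deep-layer-like nuclei, where 12.7% of all genes were called higher and 14.8% lower, 7 of 16 measurable immature genes were higher (Stmn1 0.36, Nrep 0.34, Dcx 0.27, Cd24a 0.61 and Tubb3 0.27 among them), 7 were not called and 2 were lower (Igfbpl1 -0.29 and Draxin -0.23, named after their values were seen). The maturing genes were split, 4 higher and 9 lower of 18, with Snap25 (-1.67) lower and Mef2c (1.11) higher. Sox5 was lower in upper-layer-like nuclei (-1.44), and Pou3f2 (1.74) and Pou3f3 (1.00) were higher. Upper-layer-like nuclei were in part gated on Pou3f1, which is therefore not counted as a result. Between inhibitory-like and excitatory-like nuclei, where 19.6% of all genes were called higher and 18.5% lower, 11 of 16 immature genes were lower (Cntn2 -2.16, Stmn1 -0.86 and Dpysl5 -0.62 among them), as Sox4 and Sox11 were, and Dcx was higher (0.27, named after its value was seen). Sox5 was lower (-1.84), while 6 of 7 other Sox genes were higher, led by Sox6 (3.96), Sox1 (3.05) and Sox2 (2.82). Between cycling and glial-like nuclei, where 25.3% of all genes were called higher and 24.2% lower, 11 of 16 immature genes were higher, including Stmn1 (1.12) and Dcx (0.97), as were 13 of 16 maturing genes, including Snap25, Syt1 and Grin2b (list medians 0.44 and 0.79), with Ezh2 (1.06), while Sox9 (-1.06), Sox2 (-0.56), Sox21 (-0.78) and Sox13 (-0.33) were lower, Sox10 (0.64), a gene of the oligodendrocyte lineage, was higher and Tead2 (-0.52, named after its value was seen) was lower.

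Likeness in pattern was described as Pearson's r of log2(CPM + 1) over 107 points, each 1 of 14 classes in 1 WT library, among 6417 genes of at least 20 CPM over all nuclei. Points of 1 library share its depth. The genes most like Sox11 were Tmem131l (r = 0.79), Fgf13 (0.74), which encodes a microtubule-binding protein, Dcx (0.72), which encodes doublecortin of migrating neurons, C530008M17Rik (0.69) and Trim2 (0.69). Those most like Sox4 were Tubb5 (0.58), Hsp90ab1 (0.57), Tuba1a (0.54), St6galnac3 (0.50) and Actg1 (0.50), of which Tubb5 and Tuba1a encode tubulins and Actg1 an actin. Those most like Sox12 were Cebpz (0.62), Klhl15 (0.58), Fech (0.54), Os9 (0.51) and Hmgn3 (0.50). The r between Sox4 and Sox11 was 0.34, that between Sox4 and Sox12 0.10 and that between Sox11 and Sox12 0.08.

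Over the 12 libraries, Sox11 in excitatory-like nuclei followed the mean immaturity index of the same nuclei (Pearson's r = 0.90, permutation p = 8e-05, Spearman's rho = 0.89, permutation p = 0.00028, two-sided). These relations were chosen after the data had been seen, and 12 were computed. Adjusted over the 12, the p-values were 0.0004 and 0.00084. The index ranged from 0.319 in WT 7 to 0.413 in WT 8. Without these, the farthest libraries from the median, r was 0.82, without WT 8 alone 0.85, in the 8 WT libraries alone 0.90 and in the 8 male libraries 0.81. Sox4 followed the index likewise (r = 0.88, permutation p = 0.0001, rho = 0.88, permutation p = 0.00038, adjusted 0.0004 and 0.000912, 0.87 without WT 7 and WT 8), whereas Sox12 did not reach the threshold (r = 0.49, permutation p = 0.104, rho = 0.45, permutation p = 0.145, adjusted 0.139 and 0.174, 0.27 without WT 7 and WT 8). Sox4 and Sox11 levels themselves ran together over the libraries (r = 0.97, permutation p = 2e-05, the smallest that 100000 permutations can give, rho = 0.99, permutation p = 2e-05, adjusted 0.00024 for each, 0.96 without Het 3 and WT 8).

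In inhibitory-like nuclei r with the index was 0.72 for Sox4 (permutation p = 0.0016, rho = 0.87, permutation p = 0.0006, adjusted 0.00274 and 0.00103, 0.64 without WT 2 and WT 4) and 0.71 for Sox11 (permutation p = 0.00486, rho = 0.80, permutation p = 0.00242, adjusted 0.00729 and 0.00363, 0.71 without WT 2 and WT 4). For Sox12 it was -0.38 (permutation p = 0.252, rho = 0.17, permutation p = 0.59, adjusted 0.252 and 0.59, 0.57 without WT 2 and WT 4), and the sign rested on those libraries. The 2 lineages ranked the libraries alike, with r = 0.88 for Sox11 (permutation p = 0.0002, rho = 0.91, permutation p = 0.00012, adjusted 0.00048 for each, 0.77 without Het 3 and WT 8) and 0.95 for Sox4 (permutation p = 0.00018, rho = 0.93, permutation p = 6e-05, adjusted 0.00048 and 0.00036, 0.81 without WT 4 and WT 8). Sox4 and Sox11 ran together here too (r = 0.86, permutation p = 0.0003, rho = 0.87, permutation p = 0.00054, adjusted 0.0006 and 0.00103, 0.78 without WT 7 and WT 8). Sox11 had r = 0.36 with ribosomal protein mRNA in excitatory-like nuclei (permutation p = 0.202, rho = 0.29, permutation p = 0.366, adjusted 0.22 and 0.399, 0.21 without WT 3 and WT 7) and 0.42 in inhibitory-like nuclei (permutation p = 0.166, rho = 0.47, permutation p = 0.128, adjusted 0.199 and 0.171, 0.53 without WT 4 and WT 7). Levels and indices of a library come from the same nuclei, and the index includes Tubb3 and Dcx.

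**Figure D4:**
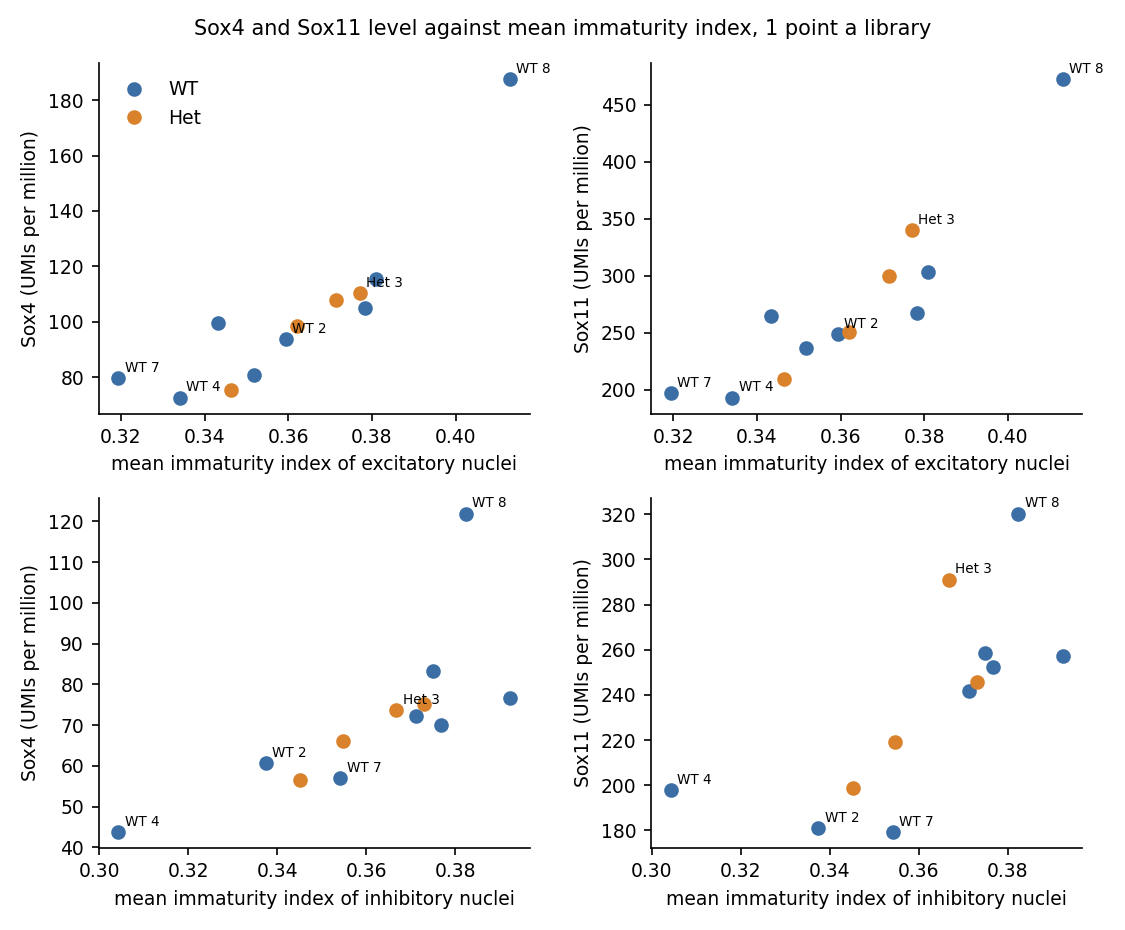
Sox4 and Sox11 level (UMIs per 1000000) against the mean immaturity index of excitatory (top) and inhibitory nuclei (bottom), with 1 point per library, WT blue and Het orange, and the libraries named in the text labelled. WT 8 had the highest level in each panel, and the 4 Het points lay between the lowest and highest WT level.

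No Sox4 or Sox11 difference between Het and WT libraries passed the test. Over all nuclei Sox4 was 73.1, 95.7, 99.3 and 90.2 CPM in Het 1 to Het 4 and between 62.0 and 145 CPM in WT (median 81.8). Sox11 was 189, 262, 320 and 228 CPM in Het and between 177 and 362 CPM in WT (median 230). All 4 Het values lay within the WT range for both genes. The log2 differences, Het minus WT, were -0.04 ± 0.17 for Sox4 (SE, adjusted p = 0.965, 95% interval -0.37 to 0.29) and 0.03 ± 0.17 for Sox11 (adjusted p = 0.975, -0.30 to 0.36), and without WT 8 they were 0.08 and 0.13. Of 20111 genes, edgeR called 0 (0%), with 1991 at an unadjusted p under 0.05, and DESeq2 called 22. Levels relative to all UMIs do not tell fewer cells of a type from less RNA per cell.

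The Sox12 difference over all nuclei lay below 0 and did not pass the test. It was 21.8, 21.3, 24.5 and 21.8 CPM in Het 1 to Het 4 and between 23.2 and 27.8 CPM in WT (median 25.9). Het 1, Het 2 and Het 4 lay below every WT library, and Het 3 within the WT range. How many of all genes were split likewise was not counted, so the split is not read as particular to Sox12. The log2 difference was -0.22 ± 0.07 (95% interval -0.35 to -0.09), with an unadjusted p of 0.00483 from edgeR's quasi-likelihood test across all genes and an adjusted p of 0.377. With each library left out in turn it stayed between -0.27 and -0.20. By the unadjusted edgeR p Sox12 ranked 258 of 20111 genes, of which 1991 were under 0.05. The Sox12 difference was below 0 in 8 of the 9 classes in which it could be tested, of which all nuclei is 1 and the others overlap with it or with each other, and 2 of the 9 had an unadjusted p under 0.05.

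In excitatory-like nuclei Sox4 was 75.4, 108, 110 and 98.3 CPM in Het 1 to Het 4 and between 72.5 and 188 CPM in WT (median 96.5), Sox11 209, 299.9, 340 and 250.5 CPM against 193 to 472 CPM (median 257), and Sox12 25.2, 21.5, 26.7 and 20.4 CPM against 21.3 to 28.9 CPM (median 26.2). The ranges overlapped for all 3 genes. The log2 differences were -0.08 ± 0.19, 0.01 ± 0.18 and -0.12 ± 0.09 (adjusted p = 0.905, 0.99 and 0.662), with 95% intervals of -0.45 to 0.28, -0.35 to 0.37 and -0.30 to 0.07. Without WT 8 the Sox4 and Sox11 differences were 0.07 and 0.16. edgeR called 1 of 14460 genes (0.00692%), no SoxC gene. In upper-layer-like nuclei the differences were -0.09, -0.01 and -0.19 for Sox4, Sox11 and Sox12 (0% of 13070 genes called, 1468 at an unadjusted p under 0.05, DESeq2 45), and in deep-layer-like nuclei -0.16, 0.02 and 0.04 (0.0672% of 8928 genes called). Without WT 8 Sox4 and Sox11 differed by 0.08 and 0.15 in upper-layer-like and by -0.05 and 0.13 in deep-layer-like nuclei. The adjusted p-values of the 6 edgeR tests with all libraries were between 0.510 and 0.998.

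In inhibitory-like nuclei Sox4 was 56.4, 75.1, 73.6 and 66.1 CPM in Het 1 to Het 4 and between 43.8 and 122 CPM in WT (median 71.1), and Sox11 199, 246, 291 and 219 CPM against 179 to 320 CPM (median 247). Sox12 was 17.7, 17.6, 22.6 and 22.0 CPM against 18.3 to 38.1 CPM (median 23.4), with Het 1 and Het 2 below every WT library. The log2 differences were -0.12 ± 0.16 for Sox4, 0.01 ± 0.13 for Sox11 and -0.29 ± 0.15 for Sox12 (adjusted p = 0.926, 1 and 0.698), the first 2 of them 0.0060 and 0.08 without WT 8, and 0% of 11540 genes were called (834 at an unadjusted p under 0.05, DESeq2 7). The difference between the lineages in the Het effect was tested itself and was -0.03 ± 0.09 for Sox4, -0.00 ± 0.10 for Sox11 and -0.17 ± 0.15 for Sox12 (adjusted p = 0.986, 1 and 0.85), with 0% of 14991 genes called (1308 at an unadjusted p under 0.05).

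None of the 31 Het comparisons of a SoxC gene was called, by edgeR (smallest adjusted p 0.377) or by DESeq2 (0.135). Sox12 had its lowest difference in cycling nuclei, with 17.2, 21.6, 23.8 and 16.6 CPM in Het 1 to Het 4 against 16.8 to 30.5 CPM in WT, a log2 difference of -0.43 ± 0.19 (adjusted p = 0.956). In cycling nuclei 0% of 9379 genes were called (447 at an unadjusted p under 0.05), in glial-like 0% of 11400 (575), in MGE-like 0% of 6196 (430), in CGE-like 0% of 3289 (176), in striatal-like 0% of 7490 (380) and in olfactory-like nuclei 0% of 2958 (159). DESeq2 called 7 genes in MGE-like and 3 in olfactory-like nuclei and 0 in the other 4. Sox4 differences in these 6 classes lay between -0.25 and 0.17, and Sox11 differences between -0.01 and 0.19. Without WT 8 the Sox4 difference turned to 0.0081 in MGE-like and to 0.14 in olfactory-like nuclei and was -0.10 in CGE-like nuclei, and the Sox11 difference was 0.15 in CGE-like, where it turned, and 0.20 in MGE-like nuclei.

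**Figure D5:**
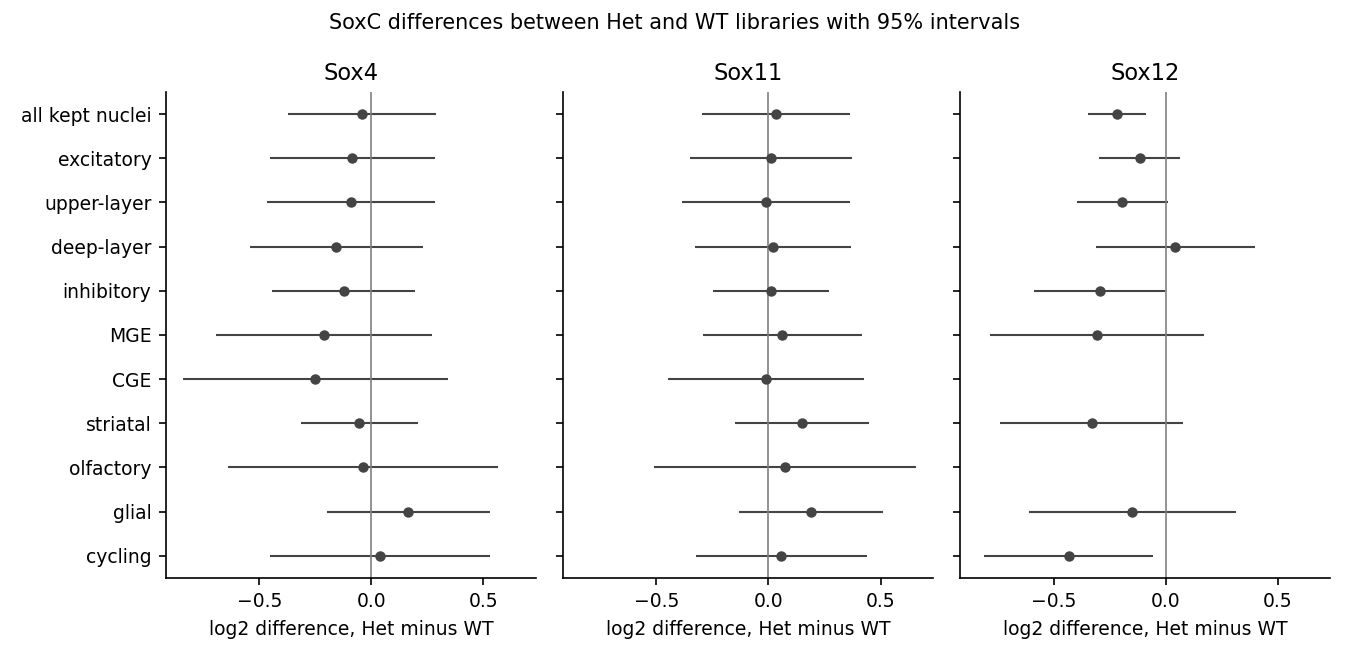
Log2 difference in Sox4, Sox11 and Sox12 between Het (n = 4) and WT libraries (n = 8) by class from edgeR, with normal 95% intervals as lines and 0 as the grey line. Sox4 and Sox11 intervals included 0 in every class. Sox12 point estimates lay below 0 in all classes tested but deep-layer nuclei. Their intervals included 0 except over all, inhibitory and cycling nuclei, and no difference was called.

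The immaturity index overlapped between the genotypes. In excitatory-like nuclei it averaged 0.364 ± 0.0134 in Het (SD, n = 4) and 0.360 ± 0.0299 in WT libraries (SD, n = 8), with Het values of 0.346, 0.372, 0.377 and 0.362 inside the WT range of 0.319 to 0.413 (difference 0.0042, two-sided exact permutation p = 0.776, adjusted 0.857). In inhibitory-like nuclei it averaged 0.360 ± 0.0124 in Het and 0.362 ± 0.0288 in WT (difference -0.0018, two-sided exact permutation p = 0.857, adjusted 0.857). The smallest p this design allows is 0.00404. With the index of each library as a covariate, an addition made after the data had been seen, the Het differences in excitatory-like nuclei were -0.11 for Sox4, -0.02 for Sox11 and -0.13 for Sox12, and in inhibitory-like nuclei -0.04, 0.05 and -0.31.

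None of the measurable immature, maturing, other Sox or partner genes was called between Het and WT in any of the 11 classes by edgeR. In excitatory-like nuclei Myt1l itself, whose frameshift transcript can still be counted, differed by 0.20 ± 0.06 (adjusted p = 0.259). WT libraries lay between 1470 and 1907 CPM and Het libraries between 1910 and 2061 CPM. How many of all genes likewise had no overlap was not counted, so the separation is not read as particular to Myt1l. By edgeR 1 of 14460 genes (0.00692%) was called and 1739 had an unadjusted p under 0.05. The frameshift itself was not read from these counts, so they do not check the genotype labels.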

How the data were processed

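Single-nucleus RNA-seq was analysed from 12 P1 forebrain libraries, 8 WT and 4 Het, grouped by their labels. The authors mapped and counted split-pool barcoded reads (ScaleRna) on mm10 and called cells from empty barcodes, and they deposited expected counts of UMIs per gene and barcode, in which 6.58 to 6.88% of entries were divided UMIs. The labels also name Seurat 4.3.0. The tests were designed for whole counts, so sums were rounded to whole numbers here. Of 126684 barcodes, 98111 had 800 to 6000 UMIs in 300 to 3000 genes, a mitochondrial share of no more than 1% and a ratio of log gene to log UMI number of 0.9 or over, and 3699 likely doublets (the top 5% per library by simulated neighbours) were removed. No barcode was shared between libraries. UMIs in kept nuclei summed to 9765377 to 24187640 per library.

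A nucleus entered a class with at least 2 genes of its marker list and more than of any other list, with 2 exceptions. At least 2 cycling genes put a nucleus in the cycling class whatever other markers it held. Otherwise at least 2 Eomes-list genes, and no fewer than of the glial and inhibitory lists, put it in the Eomes class. Counts were summed per class and library, in classes of at least 10 nuclei, and tested across libraries with edgeR 4.0.16 (quasi-likelihood, TMM factors, filterByExpr, R 4.3.3), with library as a block between classes. Ranges of the index needed at least 3 list UMIs per nucleus. Python 3.11.15, scipy 1.17.1 and scikit-learn 1.9.0 did the rest. On simulated counts for Het against WT in excitatory nuclei (14229 genes), 54.8% of genes changed 1.5-fold and 88.5% of those changed 2-fold were recovered, and for excitatory against glial nuclei (14678 genes) 60.8% and 81.6%. Calls on unchanged genes were 5 of 147 and 12 of 154. All genes but 102 and 98 were left unchanged in the simulated class pair, whereas 69.9% were called in the data. Its recovery thus describes the simulated setting only.

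Replicate numbers were not taken to pair libraries, since neither the labels nor every same-numbered pair tied them. Members and lists were chosen with earlier results of these data known. Genes named beyond the SoxC genes and Myt1l were at most 5 called members per list and comparison, by smallest adjusted p, and the 5 most alike in pattern. Marker genes held back from the gates were named as checks, and other exceptions are marked as named after their values were seen. Alternatives were RLE factors, DESeq2 1.42.0, no filter, a stricter gate, doublets kept, all barcodes, sex as a covariate, male libraries, a replicate block and each library left out. Library totals without factors, the added class pairs, the relations across libraries and the index covariate were added after the data had been seen. Poisson and binomial intervals and limits cover counting error only, and the intervals of log2 differences come from the spread between libraries in edgeR. Results for some genes are not reported here.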

Additional observations from a re-analysis of the deposited data

Results flagged for a closer look

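A library far from the others of its genotype in Dixon's test was found in 12 of 70 groups of levels examined, where chance gives about 1 in 20. The groups overlap in their nuclei and the genes run together, so the 12 are not independent. No explanation was tested.

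WT 8 accounted for 8 of them, each time as the highest WT library. In excitatory-like nuclei it had 188 CPM of Sox4 (the other WT libraries 72.5 to 115) and 472 CPM of Sox11 (193 to 303). In upper-layer-like nuclei it had 199.6 CPM of Sox4 (74.4 to 109) and 520.0 CPM of Sox11 (199 to 328). In its 132 MGE-like nuclei Sox4 was 139 CPM (44.9 to 71.4) and Sox11 447 CPM (168 to 297). In its 44 CGE-like nuclei Sox4 was 208 CPM (50.7 to 92.8) and Sox11 662 CPM (203 to 397).

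Het 3 stood above the other Het libraries in Sox12 over all nuclei (24.5 CPM against 21.3 to 21.8) and in Sox11 in 129 CGE-like nuclei (401 CPM against 259 to 277). Het 1 did so in Sox4 in 76 olfactory-like nuclei (111 CPM against 84.8 to 89.2). WT 2 had 37.0 CPM of Sox12 in 208 deep-layer-like nuclei, against 16.9 to 26.1 CPM in the other WT libraries.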

How the results depend on the processing

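The Sox4 and Sox11 differences between excitatory-like or cycling and glial-like nuclei and across the index kept their direction under each alternative run. No Het difference of a SoxC gene was called under any alternative. Of the values that answer a comparison under an alternative, 440 kept their direction and side of the threshold, 49 turned, 8 newly passed it and 4 no longer did, and of the others 654, 86, 17 and 11. The cause of the changes was not tested. With library totals and no factors, Sox12 was -0.10 between excitatory-like and glial-like nuclei, Sox11 was -0.19 between inhibitory-like and excitatory-like nuclei and no longer called, Sox4 and Sox12 were -0.078 and -0.22 between inhibitory-like and glial-like nuclei, Sox4 was -0.091 between inhibitory-like and microglia-like and 0.034 between upper-layer-like and deep-layer-like nuclei, Sox12 was 0.041 across the excitatory index and 0.036 between Cajal-Retzius-like and excitatory-like nuclei, and the Het difference of Sox11 in CGE-like nuclei was 0.0017. Without a filter on low counts, Sox12 between the lineages was -0.24 and called, Sox4 between the layers 0.067, Sox11 between olfactory-like and striatal-like nuclei -0.065, Sox4 between MGE-like and CGE-like nuclei -0.36 and not called, and the Het difference of Sox11 in CGE-like nuclei 0.021. Under the stricter gate Sox12 between the lineages was -0.37 and called, Sox4 across the excitatory index 0.66 and Sox11 between the layers 0.28, both not called, Sox12 between inhibitory-like and glial-like nuclei -0.096, Sox11 between olfactory-like and striatal-like nuclei -0.34 and between MGE-like and CGE-like nuclei 0.0067. Het differences there were -0.044, -0.11, -0.10 and 0.36 for Sox11 in excitatory-like, deep-layer-like, MGE-like and CGE-like nuclei and 0.018 for Sox12 in cycling nuclei. The stricter gate left too few olfactory-like nuclei for a comparison of the genotypes, which was not run. With all barcodes, Sox11 between the lineages was -0.16 and not called, Sox12 was 0.086 across the excitatory index, -0.036 between the layers and -0.14 between MGE-like and CGE-like nuclei, where Sox11 was -0.33 and called, and the Het differences were 0.025 and 0.026 for Sox4 over all and in excitatory-like nuclei, 0.068 for Sox11 in upper-layer-like and -0.016 for Sox12 in deep-layer-like nuclei. With doublets kept, Sox12 was -0.0047 between the layers and -0.018 between MGE-like and CGE-like nuclei, and the Het difference of Sox11 in inhibitory-like nuclei -1.6e-04. With sex as a covariate the Het differences were 0.017 and 0.019 for Sox4 over all and in olfactory-like nuclei and 0.042 and 0.055 for Sox11 in upper-layer-like and CGE-like nuclei. In male libraries Sox4 was 0.13 over all nuclei, 0.10 in excitatory-like, 0.11 in upper-layer-like, 0.032 in inhibitory-like and 0.31 in olfactory-like nuclei, Sox11 0.18 in upper-layer-like and 0.24 in CGE-like nuclei, and the inhibitory index differed by 0.0053, and by 0.0022 in all libraries when thinned. With the index as a covariate Sox11 in excitatory-like nuclei was -0.022.

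With the replicate number as a block, Het differences turned for Sox11 over all nuclei (-0.0046) and in excitatory-like (-0.0053), deep-layer-like (-0.11) and cycling nuclei (-0.085), for Sox12 in deep-layer-like nuclei (-0.029) and for Sox4 in cycling (-0.12) and olfactory-like nuclei (0.021). Deviations of the 4 same-numbered pairs correlated between -0.19 and 0.40 over all nuclei (median 0.138, other pairs -0.0671) and between 0.0495 and 0.41 in excitatory-like nuclei (median 0.116, other pairs -0.0260), with 1 pair under 0.1 in each, so the numbers were not taken as pairs. The block gave 0 called genes in excitatory-like, 2 in upper-layer-like, 12 in deep-layer-like, 5 in CGE-like, 7 in striatal-like and 31 in cycling nuclei.

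With each library left out, Het differences of Sox4 ranged from -0.10 to 0.079 over all nuclei, -0.15 to 0.074 in excitatory-like, -0.16 to 0.084 in upper-layer-like, -0.19 to 0.0060 in inhibitory-like, -0.40 to 0.0081 in MGE-like, -0.48 to 0.056 in CGE-like, -0.14 to 0.023 in striatal-like, -0.17 to 0.14 in olfactory-like, -0.019 to 0.28 in glial-like and -0.078 to 0.17 in cycling nuclei. Those of Sox11 ranged from -0.11 to 0.15 over all nuclei, -0.10 to 0.16 in excitatory-like, -0.11 to 0.15 in upper-layer-like, -0.17 to 0.14 in deep-layer-like, -0.092 to 0.093 in inhibitory-like, -0.027 to 0.20 in MGE-like, -0.19 to 0.15 in CGE-like, -0.12 to 0.30 in olfactory-like, -0.054 to 0.32 in glial-like and -0.095 to 0.20 in cycling nuclei. Sox12 in deep-layer-like nuclei ranged from -0.099 to 0.12, and the lineage term from -0.063 to 0.013 for Sox4 and -0.066 to 0.022 for Sox11. Of the class differences, Sox12 ranged from 0.24 to 0.35 between excitatory-like and glial-like nuclei, -0.24 to -0.16 between the lineages, -0.055 to 0.045 between the layers and -0.0015 to 0.18 between MGE-like and CGE-like nuclei, and Sox4 from -0.050 to 0.029 between the layers. The index difference ranged from -0.0016 to 0.012 in excitatory-like and -0.010 to 0.0031 in inhibitory-like nuclei.

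Counts of called genes moved more. Against 1 gene between Het and WT in excitatory-like nuclei, DESeq2 gave 48, no filter 157, male libraries 226, doublets kept 7 and leaving out Het 4 gave 392. Upper-layer-like nuclei went from 0 to 45, 335, 252, 4 and 305 under the same settings. Without Het 4, 39 genes were called over all nuclei, 90 in deep-layer-like (6 with it), 6 in MGE-like and 125 for the lineage term. No filter gave 153 in deep-layer-like, 182 in inhibitory-like, 64 in MGE-like, 47 in glial-like and 87 in cycling nuclei, and male libraries 62 in deep-layer-like nuclei and 12 for the lineage term. The stricter gate gave 1463 against 3565 genes between the layers, 320 against 1438 between olfactory-like and striatal-like, 558 against 1682 between MGE-like and CGE-like nuclei, and 753 against 1971 and 1615 against 2518 across the excitatory and inhibitory index. Between Eomes-gated and excitatory-like nuclei 2240 genes were called, 798 without factors and 998 by DESeq2. Low depth limits Sox12 most, at 261 to 672 UMIs per library.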

Other observations

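Myt1l, the gene mutated in the Het animals, rose from glial-like to neuronal nuclei, as Sox11 did in both lineages. Its course over the immaturity index depended on the scaling. It was higher than in glial-like nuclei by a log2 difference of 2.56 ± 0.09 in excitatory-like (SE, adjusted p = 4.25e-16 by edgeR), 2.17 ± 0.09 in inhibitory-like (adjusted p = 5.19e-15) and 0.94 ± 0.07 in cycling nuclei (adjusted p = 1.16e-12). Myt1l also reached 959 CPM ± 309 in microglia-like nuclei (SD, n = 12), above cycling (796 CPM) and glial-like nuclei (415 CPM). Its levels in cycling and glial-like nuclei are therefore not read as expression. In excitatory-like nuclei it averaged 1656, 1768, 2141 and 2371 CPM over the 4 ranges from mature to immature, while the difference between the extremes with edgeR's factors was 0.18 ± 0.09 and not called (adjusted p = 0.132). In inhibitory-like nuclei it averaged 1321, 1577, 1755 and 1295 CPM, highest in the middle, and the difference with factors was -0.49 (adjusted p = 0.000795), although the CPM of the extremes was close.

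Cajal-Retzius-like nuclei, lowest in Sox11, were lower than excitatory-like nuclei in 14 of 16 measurable immature neuron genes (Stmn1 -1.32, Dcx -1.42, Ncam1 -0.99 and Igfbpl1 -2.65 among them), while Nhlh2 (7.08) and Draxin (0.79, named after its value was seen) were higher. They were lower also in 11 of 17 maturing neuron genes (Mef2c -3.73 and Grin2b -2.36 among them), with Snhg11 (4.62) and Syn2 (2.33) among 4 that were higher. The medians were -0.96 and -1.33 against -0.15 over all genes, and 32.3% of genes were called (21.5% lower). Of 8 measurable partners 5 were lower, Pou3f3 (-2.81), Pou3f2 (-3.16), Pou3f1 (-4.10), Ezh2 (-0.91) and Neurod1 (-2.81).

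In the most immature inhibitory-like nuclei Sox11 was 469, 795, 812 and 684 CPM in Het 1 to Het 4, from 38 to 58 nuclei each, and between 402 and 720 CPM in the 7 WT libraries with at least 10 such nuclei. Het 2 and Het 3 lay above every WT library. The genotypes were not tested in this range, and how many of all genes did likewise was not counted. The other Sox4 and Sox11 levels of the most immature ranges had the lower mean in Het. Sox4 was at 146 CPM in Het and 197 CPM in WT in inhibitory-like nuclei. In excitatory-like nuclei Sox11 was at 710 and 787 CPM and Sox4 at 210.2 and 214 CPM. Sox12 averaged 45.4 CPM in Het and 29.4 CPM in WT in inhibitory-like nuclei, from 23 UMIs. In excitatory-like nuclei it averaged 16.0 and 37.3 CPM, from 20 UMIs. The share of inhibitory-like nuclei in the range was 4.11% ± 0.123 in Het (SD, n = 4) and 5.77% ± 2.19 in WT libraries (SD, n = 8), with the Het values inside the WT range of 1.97 to 7.83%. For excitatory-like nuclei the share was higher in Het, 2.72% ± 0.719 against 2.24% ± 0.925 in WT, with Het values inside the WT range of 0.940 to 3.43%.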
